A study of Mus musculus with 2 samples.

Results

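Genes that encode the precursors of retinal neuropeptides were compared between 2 mouse retina arrays. The 10 genes were Vip, Sst, Npy, Tac1, Penk, Cck, Crh, Adcyap1, Pdyn and Gal, chosen by name, as peptide genes of amacrine and ganglion cells, and their probes were taken as the non-control probes whose accession is a RefSeq transcript of one of them. This gave 11 probes, in 20 spots on each array, for 10 of the 21367 genes that have a named probe. Sst had 10 spots of 1 probe, Pdyn had 2 probes, and each other gene had 1 probe in 1 spot.

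Total RNA came from retinas dissected at postnatal day 12, with 1 sample labelled wild type and 1 labelled Samd7 KO. Samd7 encodes a sterile alpha motif protein of photoreceptors that is known to work with Polycomb repressor complexes. The labels give no strain, sex or number of animals or retinas per sample, nor the part of Samd7 that was deleted. With 1 array a group there is no replicate, so every difference below compares these 2 arrays, carries no p-value and says nothing about the spread between animals.

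Amacrine and ganglion cells are inner retinal neurons. Many amacrine cells release a peptide beside an inhibitory transmitter, and each peptide marks a sparse set of cells with its own layer of processes. The peptides are cut from longer precursors by proprotein convertases, stored in dense-core vesicles and read by G protein-coupled receptors on other retinal cells. In bulk RNA, fewer peptide cells and less peptide RNA per cell cannot be told apart.

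The arrays held 59305 non-control spots each, of which 60.3% on the wild-type-labelled and 60.9% on the knockout-labelled array were well above background by the scanner's call, and no spot was saturated. Signals are given as log2 values with each array's 75th percentile set to 0. On this scale the single named Samd7 probe read 4.68 (wild-type-labelled) and 6.47 (knockout-labelled). It was thus higher on the array where a deleted gene would be lower, which checks nothing if the deletion spares the stretch that the probe reads. The arrays are therefore called by their labels, and every direction rests on those labels. All 24 amacrine markers with a named probe and all 22 ganglion cell markers were detected (well above background on 1 array or both).

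All 10 precursor genes were above background on both arrays, and their levels were close to equal. None of the 10 was 2-fold apart, where 2.95% of 15941 named genes were (1.58% higher and 1.37% lower on the knockout-labelled array), and none was 1.5-fold apart, where 6.17% were. Among the 8162 genes measured on both arrays within the members' range of signal, 2.83% were 1.5-fold apart, so finding none among 10 is near that background. The knockout-labelled array read between 83.8% (Adcyap1) and 105% (Penk) of the wild-type-labelled array. The median log2 difference, knockout-labelled minus wild-type-labelled, was -0.05, against -0.02 over all named genes counted. Of the 10 differences 8 were below 0, as were 57.6% of genes in the same range of signal.

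**Figure D1:**
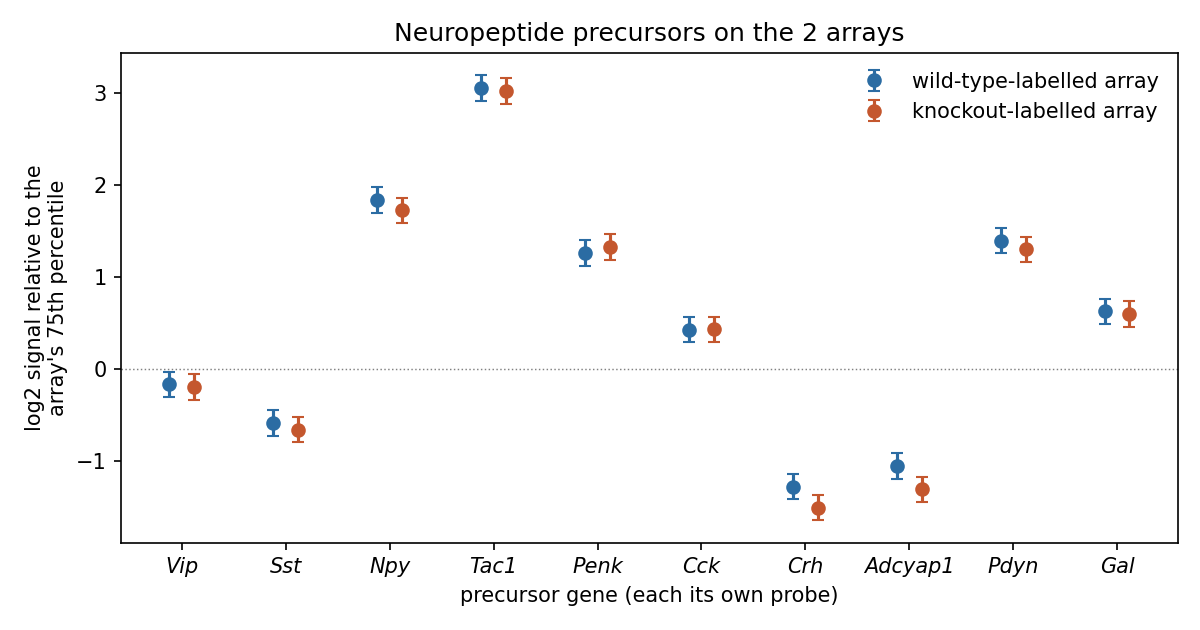
Log2 processed signal, with each array's 75th percentile at 0 (vertical axis) for the brightest probe of each of the 10 precursor genes (horizontal axis) on the wild-type-labelled (blue) and knockout-labelled (orange) array; bars show the scanner software's error estimate of at most 10.1% of a spot's signal. The 2 points of each gene lie close together, with the widest gap at Adcyap1 (-0.25); heights of different genes are not comparable because each has its own probe.

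Error within an array was taken in 2 ways, from repeated spots and from the scanner software's own estimate. Neither covers animals. Across probes with repeated spots, the log2 difference of a single spot had an SD of 0.05 at signals of 0 or more (174 probes) and 0.09 at signals from -2 to 0 (75 probes). The scanner's own estimate was at most 10.1% of the signal of such a spot, which comes to 0.20 to 0.21 for a log2 difference. By the SD of repeated spots, taken for Sst over the mean of its 10 spots, 6 of the 10 members were more than 1 SD from 0. Of these 5 were lower on the knockout-labelled array. More than 2 SD from 0 were 4, all lower: Adcyap1 (2.95 SD), Crh (2.65), Sst (2.62) and Npy (2.35). With the SD of a single spot for every member, 5 were more than 1 SD from 0. Beyond the scanner's estimate lay 2, Crh and Adcyap1. In what follows processed signals are given as scanned, before scaling, and log2 differences and percentages after each array was scaled to its 75th percentile (574 on the wild-type-labelled, 554 on the knockout-labelled array).

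Adcyap1 and Crh had the widest differences, both lower on the knockout-labelled array and both read at signals below the array's 75th percentile. Adcyap1 encodes PACAP, a peptide known from melanopsin ganglion cells that carry light signals to the brain clock. Its probe read a processed signal of 276 (wild-type-labelled) and 223 (knockout-labelled), which after scaling is a log2 difference of -0.25, or 16.2% lower. Crh encodes corticotropin-releasing hormone, which in the retina is made by certain amacrine cells. The Crh probe read 236 and 194 in the same order, which after scaling is a log2 difference of -0.23, or 14.7% lower. Both differences exceeded the SD of a single spot at that signal (0.09) and lay just beyond the scanner's error estimate (0.21). With arrays centred on the median Crh came to -0.20, inside that estimate. After normexp background correction both were inside it, Crh at -0.15 and Adcyap1 at -0.19. The 2 differences were not rare for their signal: of 3095 genes measured on both arrays at signals from -2 to 0, 15.5% differed by at least as much as Adcyap1 and 17.9% by at least as much as Crh, in either direction. Each rests on 1 spot of 1 probe per array.

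Sst, the precursor of the inhibitory peptide somatostatin, was the best measured member because its probe was spotted 10 times. The wild-type-labelled spots ran from 345 to 402 with a median of 383, and the knockout-labelled spots from 329 to 382 with a median of 348. The ranges overlapped over most of their length. The log2 difference of spots at the same position was -0.07 ± 0.10 (SD over 10 spots), below 0 in 8 of 10 positions and above 0 in 2. Repeated spots share 1 RNA sample, so this SD measures the array and not the retina. After scaling, the mean difference amounts to a signal 4.82% lower.

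**Figure D2:**
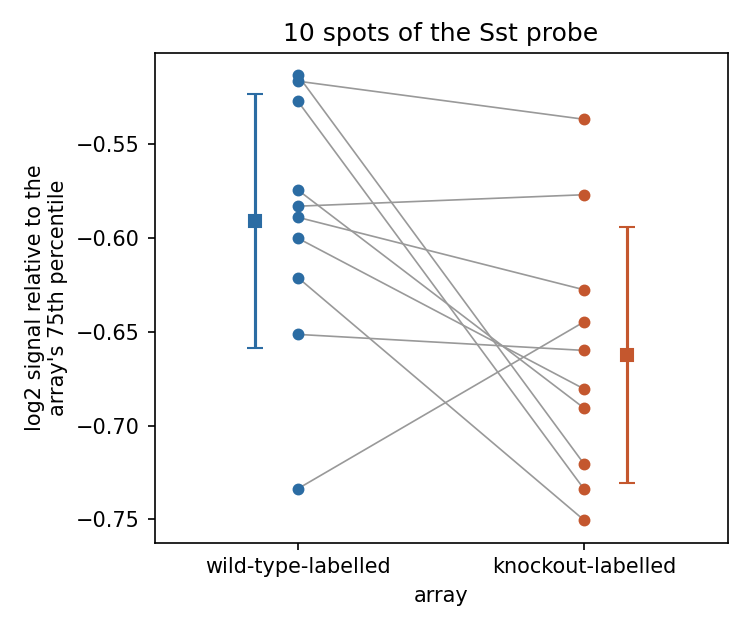
Log2 signal of the 10 spots of the Sst probe (vertical axis, 75th percentile at 0) on the wild-type-labelled and knockout-labelled arrays, with a line joining spots at the same position and squares with bars for the mean and SD over the spots. The means, -0.59 and -0.66, lie about 1 SD of a spot (0.07) apart, and 8 of the 10 lines fall.

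Outside the opioid family, Vip, Tac1, Cck and Gal were level within a few percent, and Npy was 7.62% lower on the knockout-labelled array. Vip, the precursor of vasoactive intestinal peptide, had a processed signal of 510 on the wild-type-labelled and 482 on the knockout-labelled array (log2 difference -0.03). Tac1, which encodes substance P and neurokinin A, read 4768 and 4493 in the same order (-0.03). Cck, the cholecystokinin precursor, read 770 and 745, which after scaling left a log2 difference of 0.004. These 3 differences were smaller than the SD of a single spot. Gal, the galanin precursor, read 884 and 836, a log2 difference of -0.03. Npy, the neuropeptide Y precursor, read 2051 and 1826. Its log2 difference of -0.11 was 2.35 times the SD of repeated spots at that signal but 0.56 times the scanner's estimate, and 27.3% of 8728 genes as bright were at least as far apart. For Vip and Gal the sign itself turned when arrays were centred on the median (to 0.003 and 0.005), so neither has a direction.

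The opioid precursors gave 1 higher and 1 lower value, both small. Penk, which encodes the enkephalins, read 1374 on the wild-type-labelled and 1387 on the knockout-labelled array, a log2 difference of 0.07 and the highest of the 10. Pdyn, which encodes the dynorphins, read 1509 and 1361 in the same order with its brighter probe, a difference of -0.10. Its other probe, A_66_P123898, was not well above background on the wild-type-labelled array and only just so on the other, with processed signals of 11.6 and 16.5. That probe gave a bound of at least 0.33 higher on the knockout-labelled array, equal to about 1 SD of a spot at such signals, so the probes disagreed in sign. Averaging both probes moved Pdyn to 0.12.

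**Figure D3:**
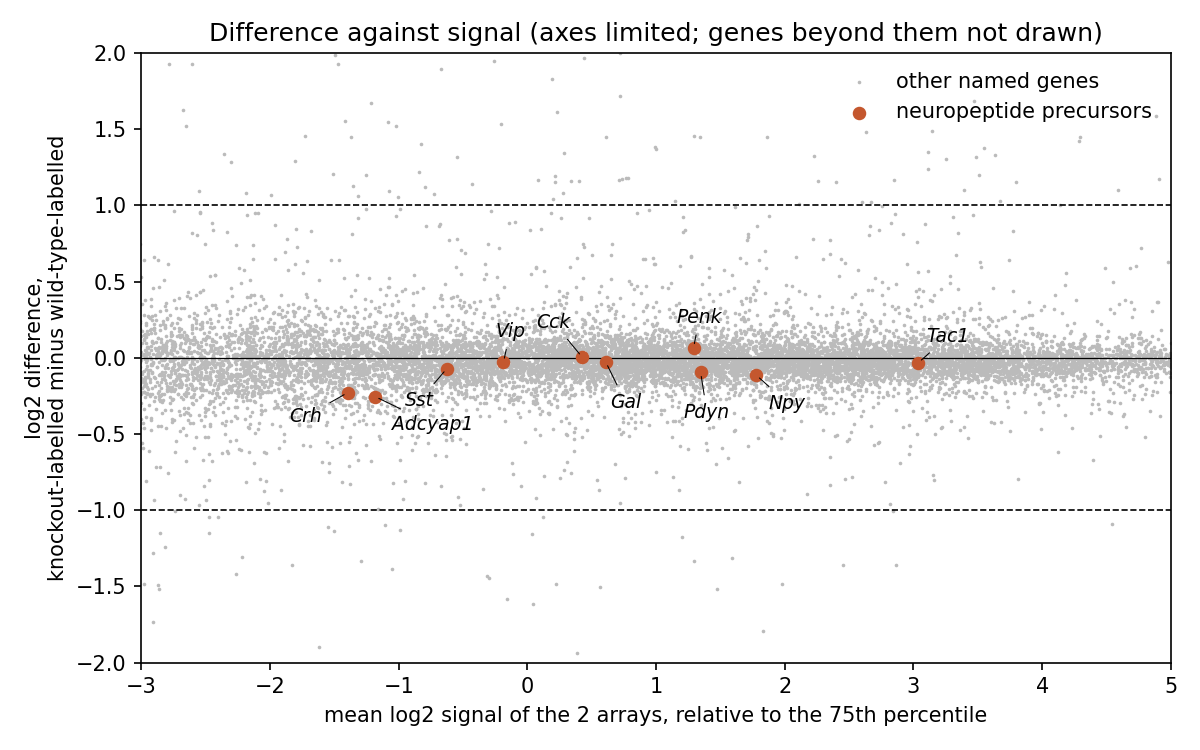
Log2 difference, knockout-labelled minus wild-type-labelled (vertical axis), against mean log2 signal relative to the 75th percentile (horizontal axis) for named genes measured on both arrays (grey) and the 10 precursors (orange); dashed lines mark 2-fold. The precursors lie inside the main band of genes, from -0.25 (Adcyap1) to 0.07 (Penk).

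Peptide genes are textbook targets of CREB, the factor that reads cyclic AMP and activity, so the short sequence it is known to bind was looked for in RefSeq promoters. The windows, on build GRCm38.p6, run from 250 bases before a start site to 50 bases after it, and 8 of the 10 genes had an entry (10 entries in all, as Pdyn and Adcyap1 had 2 each). Penk and Crh had no entry, so their promoters were not searched. The full palindrome TGACGTCA occurred in 1 member entry, that of Sst, and in 1.79% of all 32851 entries. The shorter TGACG, searched on both strands (CGTCA on the other) and contained in the palindrome, occurred in 7 of the 10 member entries, for Vip, Sst, Tac1, Cck, both of Adcyap1 and Gal, and in 20.8% of all entries. The 2 Adcyap1 windows overlap and share 1 match, and the Gal match lies after the start. No other motif was searched for. Member entries held 4 (Vip) to 24 (Npy) CG dinucleotides, against a median of 7 over all entries. Whether CG content bears on these shares was not tested. The matches before a start site are shown in their surroundings, 5′ to 3′ on the strand of the gene, with the match in capitals. They lie at chr16:23890874-23890903 on the minus strand (Sst), chr10:5639099-5639183 on the plus strand (Vip), chr6:7554978-7555060 on the plus strand (Tac1, the nearer of 2 matches), chr9:121495697-121495781 on the minus strand (Cck) and chr17:93198914-93198943 on the plus strand (Adcyap1).
Sst: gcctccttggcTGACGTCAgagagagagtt
Vip: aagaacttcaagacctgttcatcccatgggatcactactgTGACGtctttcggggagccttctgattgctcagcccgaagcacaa
Tac1: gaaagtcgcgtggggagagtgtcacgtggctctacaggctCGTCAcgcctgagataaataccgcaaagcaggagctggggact
Cck: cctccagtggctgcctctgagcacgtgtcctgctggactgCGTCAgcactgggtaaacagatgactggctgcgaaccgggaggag
Adcyap1: ggactaggatgcTGACGtcttttactgata
The first base of the match lay 48 bases before the start site in Sst, 79 in Vip, 43 in Tac1, 47 in Cck and 91 in Adcyap1. The Vip, Tac1 and Cck stretches lie before the annotated gene, whereas those of Sst and Adcyap1 lie before the start site used here but inside the annotated span of the gene, which begins farther upstream. The 6 genes with a match differed by -0.25 (Adcyap1) to 0.004 (Cck), and the genes with an entry but no match, Npy and Pdyn, were at -0.11 and -0.10. The Pdyn value is that of its brighter probe only. A match is only a run of letters, and binding was not measured.

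Among 22 activity-regulated and CREB pathway genes, 21 were above background, with a median log2 difference of 0.05 (9 below 0, 12 above). Egr1, an immediate-early transcription factor, was the highest at 0.70 and Nr4a1, an activity-induced nuclear receptor, the lowest at -0.23. No member of that list was 2-fold apart, against 2.95% of all named genes. At least 1.5-fold higher were 2 of the 21, Egr1 and a gene with a bound, against 2.97% of all named genes. None was at least 1.5-fold lower, against 3.21%.

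Receptors for these peptides were mostly level where they could be measured. Of 27 receptor genes, 19 were detected, with a median log2 difference of -0.02, 10 below 0 and 9 above. The list includes Oprl1, a relative of the opioid receptors whose own ligand, nociceptin, comes from none of the 10 precursors. Only Npy5r was 2-fold apart (1 of 19, against 2.95% of all genes). It encodes a neuropeptide Y receptor and was not well above background on the wild-type-labelled array, with a log2 signal of -3.67 on the other, which makes it at least 3.30-fold higher there. After normexp background correction, whose offset shrinks dim differences, its value was 0.52, so the 2-fold call ended. The opioid receptors Oprd1 and Oprk1, the cholecystokinin receptor Cckar, the galanin receptors Galr1 and Galr3 and the neuropeptide Y receptors Npy2r, Npy4r and Npy6r were not well above background on either array.

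The galanin receptor Galr2 was the lowest receptor measured on both arrays, at -0.59, but its probe was dim (log2 signal -3.92 and -4.51) and normexp brought it to -0.32. Sstr3, a somatostatin receptor, was at -0.50 (-0.32 after normexp) and Oprl1 at -0.20. Vipr1, a receptor shared by VIP and PACAP, was at 0.20 with its other probe at -0.20, so the probes were opposed. Oprm1, the mu opioid receptor, was at 0.32, while its other probe was not well above background on either array. Tacr2, a tachykinin receptor, was also at 0.32, but its other probe was well above background on the wild-type-labelled array alone and gave at least 1.91 lower on the knockout-labelled array. For Vipr1 and Tacr2 no direction is given. Receptors known for Crh and Adcyap1, the members that differed most, were at 0.08 (Crhr1, with its dimmer probe at -0.04) and -0.12 (Adcyap1r1), and Crhr2 had a log2 signal of -0.49 on both arrays. Vipr2, which like Vipr1 binds PACAP and VIP, was at -0.19, with its other probes at -0.06 and -0.20. Crhr1, Crhr2, Adcyap1r1 and Vipr2 fall outside the rule for named genes and were chosen after their values were seen.

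The machinery that cuts and stores neuropeptides was represented by 26 genes, of which 25 were above background, with a median log2 difference of -0.02 (15 below 0, 10 above). None was 2-fold apart, against 2.95% of all named genes, and 2 of the 25 were 1.5-fold apart, against 6.17%. Pcsk2, the proprotein convertase that completes the cutting of many neuropeptide precursors, read 3.24 (wild-type-labelled) and 2.55 (knockout-labelled) on the log2 scale. Its difference of -0.69 is 1.61-fold lower, and its other probe gave -0.44. Of all named genes, dim ones included, 3.21% were at least 1.5-fold lower. Among genes measured on both arrays within the members' range of signal, where Pcsk2 lies, 2.83% were 1.5-fold apart in either direction. Both Pcsk2 probes were bright and on the same side. Its relative Pcsk1, which acts earlier on many precursors, was at -0.12 but at 0.03 after normexp, so it has no direction.

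Ece1, an endothelin-converting metalloprotease that also degrades other peptides, was the other gene past 1.5-fold. It was at 0.98 or 1.97-fold higher (2.97% of named genes were at least 1.5-fold higher). In the members' range of signal, where Ece1 also lies, 2.83% were 1.5-fold apart in either direction. The Ece1 value passed 2-fold when arrays were centred on the median (1.01) but was 0.71 after normexp, and it rests on 1 probe. Carboxypeptidase E, Cpe, which trims the cut ends, was at -0.14, with its other probes at -0.01 and -0.19. The granin-like vesicle protein gene Scg3 was at 0.37, and the vesicle autoantigen gene Ptprn2 at 0.22 with all 3 probes between 0.17 and 0.22. The dense-core vesicle granins Chga (-0.0005), Chgb (0.10) and Scg2 (0.03) are named outside the naming rule, having been chosen after their values were seen, and were level. Crhbp, the binding protein of the Crh peptide, was level too at -0.01, and is likewise named outside the rule.

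Precursors of other neuropeptides were also mostly level. Of 46 such genes 26 were above background, with a median log2 difference of -0.01 (15 below 0, 11 above). Tac4, which encodes the tachykinin hemokinin and is a relative of Tac1, was the only one 2-fold apart (1 of 26, against 2.95% of all genes). Its log2 signals of -3.44 (wild-type-labelled) and -1.04 (knockout-labelled) make it 5.29-fold higher, or 1.52 on the log2 scale after normexp, against -0.03 for Tac1. It rests on 1 probe in 1 spot.

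The lowest of the other precursors were Nts (neurotensin, -0.61), Nmu (neuromedin U, -0.44) and Sct (secretin, -0.43). The Nts probe was dim, with log2 signals of -4.16 and -4.77, and normexp took it to -0.08. The Nmu probe was dim too (-3.47 and -3.90), and normexp turned its sign, to 0.06. Sct was bright, at 2.09 on the wild-type-labelled and 1.66 on the knockout-labelled array. The highest after Tac4 were Galp (galanin-like peptide, 0.18) and Oxt (oxytocin, 0.14), both dim.

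**Figure D4:**
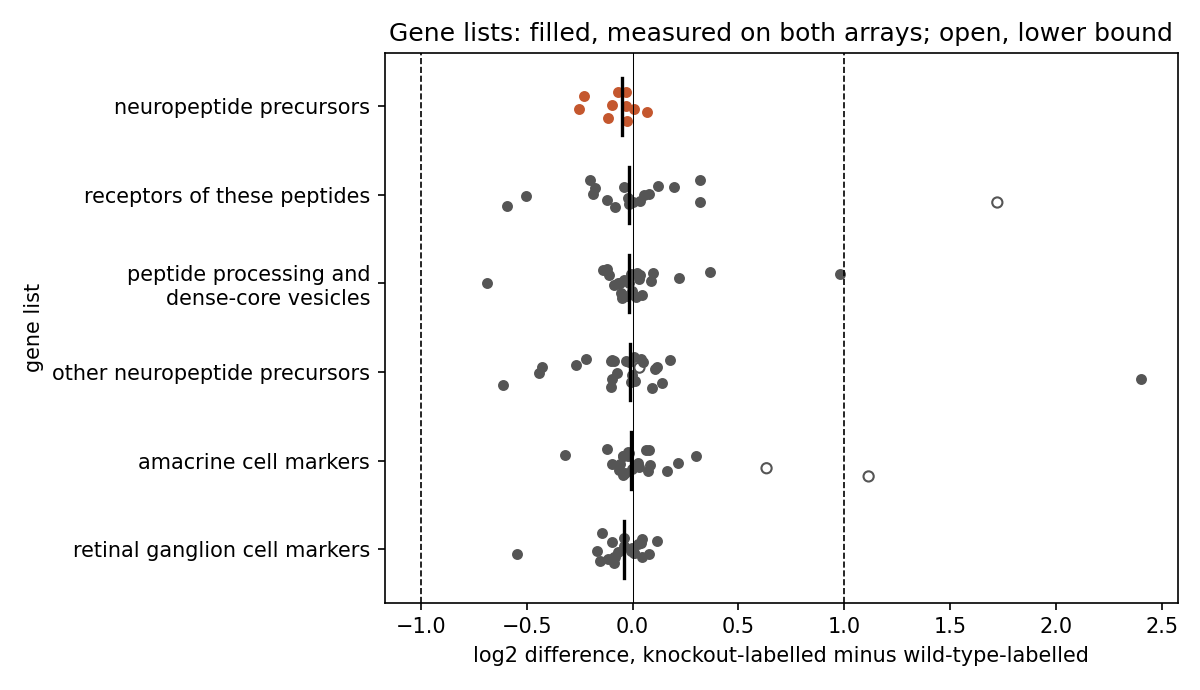
Log2 difference, knockout-labelled minus wild-type-labelled (horizontal axis), for each gene above background in 6 gene lists (rows); filled points were measured on both arrays, open points are lower bounds, bars are list medians and dashed lines mark 2-fold. The 10 precursors span -0.25 to 0.07, with single genes of other lists farther out, such as Tac4 at 2.40 and Npy5r at a bound of 1.72.

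Markers of the cells that make the peptides were level as groups. Amacrine markers had a median log2 difference of -0.01, with 13 of 24 below 0 and 11 above. The lowest were Th, the rate-limiting enzyme of dopamine synthesis (-0.32), the choline transporter Slc5a7 (-0.12) and Pax6 (-0.10), each except Th with a second probe on the same side. Among the highest measured on both arrays were Nfia (0.30, with 0.32 in its other probe, but 0.17 after normexp) and the glycine transporter Slc6a9 (0.16). Ptf1a, an early amacrine determinant, was the only amacrine marker 2-fold apart (1 of 24, against 2.95% of all named genes), by a bound that normexp ended (0.46).

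Ganglion cell markers had a median of -0.04, with 14 of 22 below 0 and 8 above. None was 2-fold apart, against 2.95% of all named genes. Jam2, an adhesion molecule that marks a ganglion cell subset, was at -0.54, with its other probe at -0.44. Foxp2 was at -0.17, but its other probe was at least 1.05 higher by a bound, so no direction is given. Eomes, a factor of a ganglion cell group that includes melanopsin cells, was at -0.16, with its other probe at -0.28. The neurofilament gene Nefh (0.12), Pou4f1 (0.08) and Thy1 (0.05) were the highest. The melanopsin gene Opn4, named outside the rule because Adcyap1 is known from melanopsin cells, was at 0.01.

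Marker lists of photoreceptors, pigment epithelium and lens had medians farther from 0. Rod markers had a median of -0.28 (15 of 16 below 0), from Gnat1 (-2.13) to Rom1 (0.08), and pigment epithelium markers -0.36 (8 of 10 below 0), from Pmel (-0.81) to Best1 (0.15, but -0.06 after normexp). Cone markers had a median of 0.94 (11 of 16 above 0), from Thrb (-0.21) to Ccdc136 (3.61), and lens markers 1.85 (14 of 16 above 0), from Hsf4 (-0.17) to Crybb2 (2.80). The log2 of the summed relative signal was 10.8 and 10.6 for rods, 5.74 and 5.51 for pigment epithelium, 7.57 and 9.16 for cones, and 3.78 and 5.39 for lens, on the wild-type-labelled and knockout-labelled array. Medians were 0.02 for bipolar, -0.06 for horizontal and 0.06 for Müller cell markers, and -0.12 each for endothelial and microglial markers. They were -0.03 for myelin, 0.21 for red blood cell and -0.08 for choroid, iris and sclera markers. Single genes lay far from these medians: Gng13 at 1.43 (bipolar), Ptf1a at a bound of 1.11 (horizontal) and Epb42 at -2.15 (red blood cell). The part of these shifts of marker lists in the differences of Adcyap1, Crh and Pcsk2 was not tested.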

How the data were processed

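Each sample was hybridised to a 1-colour Cy3 Agilent array. The authors deposited the scanner's intensity values, background-subtracted and detrended, per the file headers, by Agilent Feature Extraction 11.5.1.1 (protocol GE1_1105_Oct12), on a design built on mm9. Both arrays lay on 1 slide. The authors' value table holds those intensity values times a constant per array (log2 ratio 1.31 and 1.37, with medians of 108 and 106); the origin of that constant is not given here, and the table served as an alternative.

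Processed signals were divided by each array's 75th percentile (control spots excluded) and taken to log2. Flagged spots (119 and 163) were left out, and spots of a probe were averaged. Probes were named by unversioned accession in a RefSeq table of GRCm38.p6: 28330 of 55677 probes (50.9%) had 1 symbol, none several. The brightest probe stood for a gene, counted when well above background on at least 1 array (15941 genes, 15258 on both). Where 1 array was dim, the difference is a bound against the higher of that array's lowest signal well above background and the probe's own. Thresholds were 2-fold and 1.5-fold. Scaling alternatives and normexp (offset 50, on median signals) used limma 3.58.1 in R 4.3.3. The counting step was tested on simulated data. Array number, not depth, limits precision.

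The members, the gene lists and the tests were chosen with earlier results of these data known. The 19 lists are the precursors, their receptors, processing genes, other precursors, CREB pathway genes and 14 sets of cell markers. Named are all members with every probe. Receptor and processing genes past 1.5-fold, and other precursors, amacrine and ganglion genes past 2-fold, are named with the 3 highest and 3 lowest of each of those lists, and elsewhere at most the highest and lowest gene. A member of the amacrine list is not reported here by itself.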

Additional observations from a re-analysis of the deposited data

How the results depend on the processing

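No alternative put any of the 10 neuropeptide precursors 1.5-fold apart. Their median difference of -0.05 stayed between -0.08 and -0.02, and the medians of the receptor, processing, other precursor, amacrine and ganglion lists lay between -0.04 and 0.02 under the 8 alternatives run. Of 80 recomputed member values, 2 moved by more than the technical SD, Tac1 under normexp (-0.12) and Pdyn with the mean over its probes (0.12). The sign changed in 3, those of Vip, Gal and Pdyn given above. Crh ranged from -0.23 to -0.15 and Adcyap1 from -0.25 to -0.19. Of 462 values of 58 other named genes, 22 moved by more than the technical SD, 14 of them under normexp, and 6 changed sign (Pcsk1, Nmu and Best1 under normexp, and Vipr1, Tacr2 and Foxp2 with the mean over probes), none of a gene past 2-fold.

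Counts over all genes, 252 higher and 218 lower at 2-fold, changed with the handling of dim spots and with the values used: normexp on median signals gave 125 and 45, no filter 579 and 671, and both arrays above background 160 and 94. At 1.5-fold they were 473 and 511, and at 4-fold 79 and 58. Requiring detection on both arrays leaves fewer genes to count, and the normexp offset shrinks dim differences by arithmetic. Normexp also took median in place of processed signals, because the files used here hold no mean signal, and the cause of its sign changes was not tested. No paired analysis was possible because there was a single array for either genotype label.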
